A study of Mus musculus with 4 samples.

Results

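STAT proteins (signal transducers and activators of transcription) were followed here through 6 mouse genes, Stat2, Stat3, Stat4, Stat5a, Stat5b and Stat6. The genes were taken by name, as the rows of the count tables whose Ensembl ID maps to one of these symbols. They are 6 of the 37681 gene IDs in each table, and 5 of the 6 had reads. The study measured mRNA in marrow cells from C57BL/6 mice of wild-type genotype, cultured in medium that held 20% L929 supernatant, which supplies M-CSF for macrophage growth, beside 10% fetal bovine serum. It comprised 4 libraries, 1 per group, and asked how a short hairpin RNA (shRNA) against the long non-coding RNA lncRNA-COX2 and the lipopeptide Pam3Cys4, a ligand of Toll-like receptor 2, alter the transcriptome. The first group had the shRNA and was stimulated with 100 nM Pam3Cys4 for 5 h, and the second had the shRNA and was not stimulated. The third group had no shRNA and received the same Pam3Cys4 stimulation. The fourth had neither shRNA nor stimulation. The titles of the groups without shRNA carry the abbreviation EV, which no label explains, so whether those cells held a control construct is not known. No label gives the age or number of the mice.

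Cytokine receptors that lack kinase activity of their own are bound by JAK kinases, which phosphorylate STAT proteins once the cytokine binds. Phosphorylated STATs pair, enter the nucleus and activate genes, among them genes for SOCS proteins that shut the receptor down. In macrophages, type I interferon acts through STAT2 with its partner IRF9, interleukin 6 and interleukin 10 act through STAT3, GM-CSF acts through STAT5, and interleukin 4 and interleukin 13 act through STAT6. Transcript counts say how much mRNA there was for each factor and nothing of its phosphorylation, which was not measured.

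Promoter sequence and the near-identical Stat5 pair bear on how the counts below are read. The RefSeq promoter table (GRCm38.p6) held 9 windows for the 6 genes, and each was searched over the 250 bases before the annotated start, on both strands. The core of the interferon-stimulated response element, to which STAT2 and IRF9 bind, was searched as a pair of GAAA separated by any 2 bases, which reads as a pair of TTTC on the other strand. It stood in the Stat2 window and in 1 of the windows of Stat4, as GAAAGTGAAA at 97 to 88 bases before the start, against 2.98% of 32851 windows of all genes. The palindrome of TTC and GAA separated by any 4 bases, known as a preferred form for STAT6, stood only in the Stat2 window among the 9, directly after the first motif, against 5.85% of all windows. The general STAT palindrome, TTC and GAA separated by any 3 bases, stood in none of the 9, against 7.02% of all windows. The Stat2 window is shown because Stat2 moved most in these libraries and holds both motifs, and the Stat3 window because Stat3 also rose with stimulation and holds no match. Capitals mark the matches, which in Stat2 lie at 222 to 213 and at 210 to 201 bases before the start, and no match in Stat3 means only that these letters are not in that window.
Stat2 promoter, chr10:128270248-128270497, plus strand: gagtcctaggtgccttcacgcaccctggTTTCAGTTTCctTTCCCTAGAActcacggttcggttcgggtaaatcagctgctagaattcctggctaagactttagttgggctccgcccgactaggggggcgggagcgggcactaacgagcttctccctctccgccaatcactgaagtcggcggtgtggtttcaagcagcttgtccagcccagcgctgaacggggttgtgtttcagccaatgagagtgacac
Stat3 promoter, chr11:100939541-100939790, minus strand: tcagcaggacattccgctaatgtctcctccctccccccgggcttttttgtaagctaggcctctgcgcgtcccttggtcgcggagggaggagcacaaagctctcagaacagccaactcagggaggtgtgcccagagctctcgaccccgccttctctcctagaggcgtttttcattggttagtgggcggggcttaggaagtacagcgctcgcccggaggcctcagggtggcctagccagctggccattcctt

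Stat5a and Stat5b, neighbours on chromosome 11, were 90.8% identical over 2291 aligned coding bases in GENCODE vM21, whereas every other pair of the 6 genes was 58.2 to 65.3% identical. Reads of 50 bases cannot be placed where the sequences are the same, and 608 stretches of that length occurred in both genes. Stretches of Stat5a shared with other genes made up 8.52% of its total and those of Stat5b 11% of its total, and reads with several placements were given to no gene. The longest identical coding stretch covers 324 bases, coding bases 571 to 894 of both genes, counted from the first base of the start codon. Its first 200 bases, to coding base 770, are printed to show how alike the pair is, without capitals because every base is shared.
Stat5a and Stat5b shared stretch: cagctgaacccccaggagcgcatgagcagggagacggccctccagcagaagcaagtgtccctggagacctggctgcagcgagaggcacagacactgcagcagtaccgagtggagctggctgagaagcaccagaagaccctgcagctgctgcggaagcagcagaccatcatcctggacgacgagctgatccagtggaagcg

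Across the 4 libraries, reads assigned to genes ranged from 47385277 to 65826838, and 32.5 to 34.4% of all tallied reads named no gene. All 9 macrophage markers had reads in every library, with summed levels of 8232 and 6832 CPM (counts scaled to a fixed library size) in the shRNA libraries after Pam3Cys4 and unstimulated, and of 8491 and 5984 CPM in the corresponding libraries without shRNA. Markers of B cells, granulocytes, dendritic cells, erythroid cells and fibroblasts summed to at most 2.30 CPM in any library. The 5 mast cell and basophil markers summed to 16.5 and 1.16 CPM with shRNA, after Pam3Cys4 and unstimulated, and to 5.38 and 0.691 CPM without shRNA, and after Pam3Cys4 4 of the 5 were at 0 in either shRNA state. Their part in the results was not tested. The 4 Y-linked genes looked up differed with the shRNA state, though not all in the same direction. Ddx3y, a Y-linked RNA helicase gene, had 1116 and 921 counts in the shRNA libraries, against 4 and 3 counts in those without shRNA. Kdm5d, a Y-linked histone demethylase gene, had 665 and 730 counts, against 1 and 0, and Uty, which encodes a related demethylase, had 334 and 320 counts, against 0 and 1. Eif2s3y, a Y-linked translation factor gene, ran the other way at counts near the floor of 3, with 0 and 0 counts in the shRNA libraries, against 6 and 3 in those without shRNA. The labels do not say whether the same mice gave the cells of both shRNA states, and the shRNA and a difference between mice cannot be told apart in any ratio of shRNA over no shRNA below. The level of lncRNA-COX2 was not analysed here.

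Stat2, the partner of IRF9 in the interferon-activated factor ISGF3, varied most. Scaled by TMM, its level was 440.4 CPM with shRNA after Pam3Cys4, 140.2 CPM with shRNA unstimulated, 40.2 CPM without shRNA after Pam3Cys4 and 17.2 CPM without shRNA unstimulated. Both shRNA libraries lay above both libraries without shRNA, and within each pair the stimulated library was the higher. The span from lowest to highest was 25.6-fold.

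Stat3, activated by interleukin 6 and interleukin 10 among others, had 421.0 CPM with shRNA after Pam3Cys4, 230.6 CPM with shRNA unstimulated, 349.8 CPM without shRNA after Pam3Cys4 and 138.1 CPM without shRNA unstimulated. Here the stimulated libraries were the 2 highest, whichever the shRNA state, and the span was 3.05-fold. Stat6, the factor of interleukin 4 and interleukin 13 signalling, had 235.7 CPM with shRNA after Pam3Cys4, 204.4 CPM with shRNA unstimulated, 191.8 CPM without shRNA after Pam3Cys4 and 188.0 CPM without shRNA unstimulated. It was the flattest of the 5, with a span of 1.25-fold.

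Stat5a had 15.2 CPM with shRNA after Pam3Cys4, 22.3 CPM with shRNA unstimulated, 18.4 CPM without shRNA after Pam3Cys4 and 25.7 CPM without shRNA unstimulated. Stat5b had 54.2 CPM with shRNA after Pam3Cys4, 65.05 CPM with shRNA unstimulated, 32.9 CPM without shRNA after Pam3Cys4 and 46.3 CPM without shRNA unstimulated. In both shRNA states the stimulated library was the lower for either gene, but the shRNA libraries were the higher ones for Stat5b and the lower ones for Stat5a within each stimulation state. Stat5a spanned 1.69-fold and Stat5b 1.98-fold.

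Stat4, the factor through which interleukin 12 acts in T and NK cells, had 0 counts in all 4 libraries. A count of 0 allows up to 3 counts, which is 0.0547 CPM with shRNA after Pam3Cys4, 0.0450 CPM with shRNA unstimulated, 0.0594 CPM without shRNA after Pam3Cys4 and 0.0576 CPM without shRNA unstimulated, for counting error only. In the annotation used here 26.7% of the exon bases of Stat4 overlap a second gene model, Gm28177, on the same strand, where reads could not be given to either. The listed T and NK cell markers Cd3e, Cd3d, Cd3g, Cd2, Cd8a, Ncr1, Klrd1 and Nkg7 were also at 0 in every library. The rest of that list, Cd4, Lck, Zap70, Klrb1c and Prf1, had reads in the library without shRNA and unstimulated. The 13 T and NK cell markers summed to 8.53 and 4.17 CPM with shRNA, after Pam3Cys4 and unstimulated, and to 1.58 and 1.23 CPM without shRNA. Most of that was Lck, a kinase of T cells, with 433 and 197 counts with shRNA and 72 and 53 counts without shRNA.

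**Figure D1:**
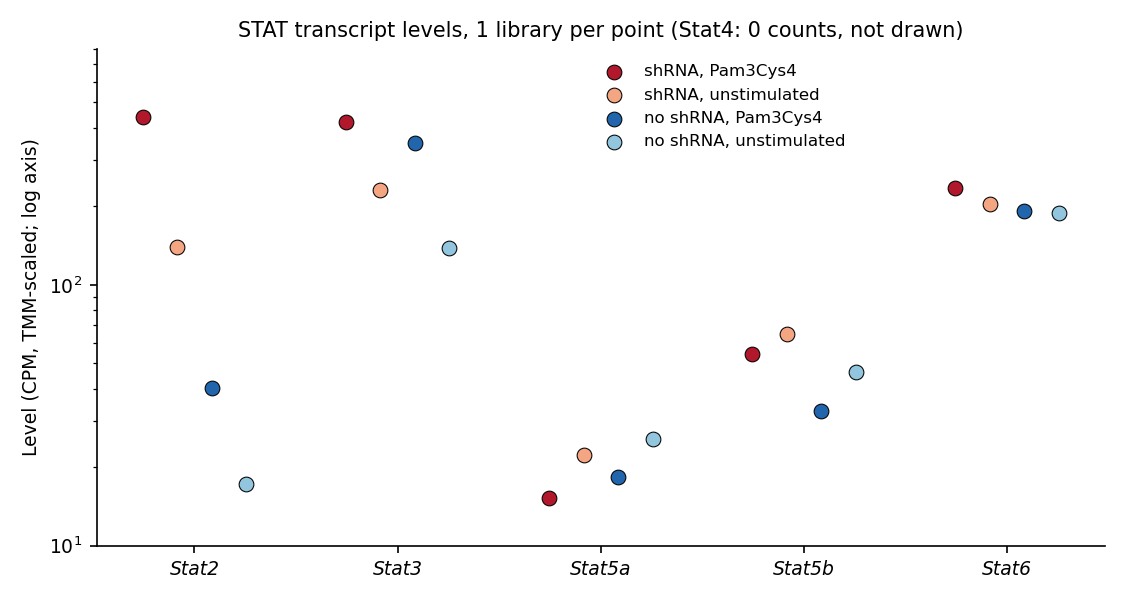
Levels of the 5 STAT genes with reads, in CPM scaled by TMM on a log axis, with 1 point per library and no error bars because each group is 1 library. Stat2 spreads from 17.2 to 440.4 CPM, with both shRNA libraries on top, while the 4 points of Stat6 lie between 188.0 and 235.7 CPM.

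Set against length, the family's make-up differed between the libraries. Levels per length are CPM per kilobase of exon, using the union of exons in GENCODE vM21. Without shRNA and without stimulation the order was Stat6 (42.7), Stat3 (14.5), Stat5b (8.36), Stat5a (3.60) and Stat2 (2.90), so that Stat2 was the lowest of the 5 with reads. With shRNA after Pam3Cys4 the order was Stat2 (74.3), Stat6 (53.6), Stat3 (44.2), Stat5b (9.78) and Stat5a (2.13), so that Stat2 was the highest. With shRNA unstimulated, Stat6 stood at 46.4, Stat3 at 24.2, Stat2 at 23.7, Stat5b at 11.7 and Stat5a at 3.12. Without shRNA after Pam3Cys4, Stat6 stood at 43.6, Stat3 at 36.7, Stat2 at 6.78, Stat5b at 5.93 and Stat5a at 2.57. Neighbours in these orders differed beyond counting error except Stat3 and Stat2 with shRNA unstimulated, whose ratio per length was 1.02 (95% counting interval 0.997 to 1.05).

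The summed level per length was 184.0 CPM per kilobase with shRNA after Pam3Cys4, 109.2 with shRNA unstimulated, 95.6 without shRNA after Pam3Cys4 and 72.1 without shRNA unstimulated. Stat2 made up 40.4% of it with shRNA after Pam3Cys4 and 21.7% with shRNA unstimulated, against 7.09% and 4.03% in the matching libraries without shRNA. The share of Stat6 was 29.1% with shRNA after Pam3Cys4 and 42.5% with shRNA unstimulated, against 45.6% without shRNA after Pam3Cys4 and 59.3% without shRNA unstimulated. The level of Stat6 itself spanned 1.25-fold, so its share was lowest where the sum was highest.

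**Figure D2:**
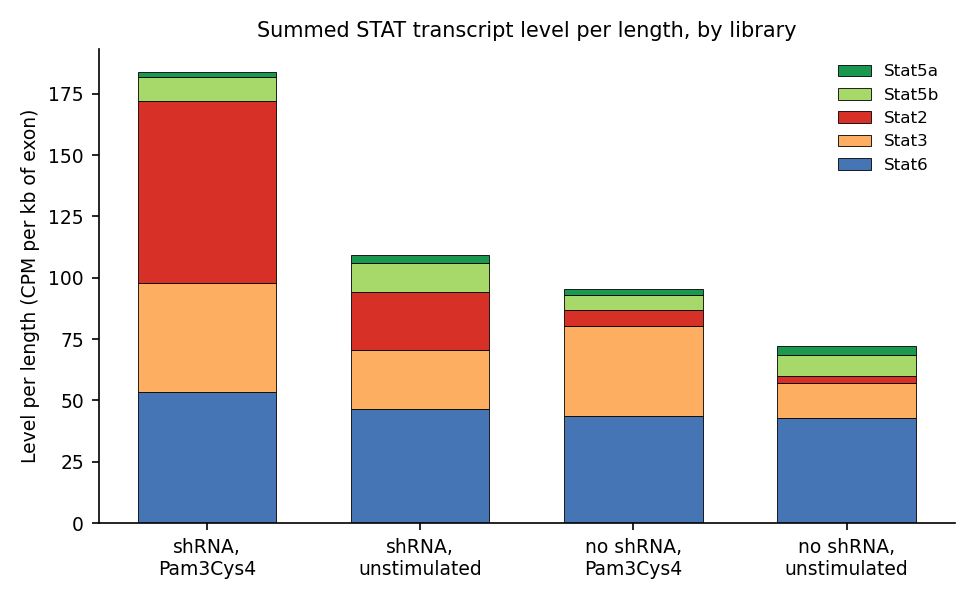
Stacked bars of the level per length (CPM per kilobase of exon) of the 5 STAT genes with reads, 1 bar per library, starting at 0. The bar of the shRNA library after Pam3Cys4 reaches 184.0 and its largest piece is Stat2 at 74.3, whereas in the other 3 bars the largest piece is Stat6, at 42.7 to 46.4.

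The pair of Stat5 genes shifted in balance with the shRNA state. Per length, Stat5b exceeded Stat5a 4.60-fold with shRNA after Pam3Cys4 (95% counting interval 4.26 to 4.97) and 3.76-fold with shRNA unstimulated (3.54 to 3.99). Without shRNA the excess was 2.31-fold after Pam3Cys4 (2.13 to 2.50) and 2.32-fold unstimulated (2.17 to 2.48). Counting only positions whose 50 bases occur in no other gene, the 4 values were 4.91 and 4.01 with shRNA and 2.46 and 2.48 without shRNA, in the same order of stimulation.

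Pam3Cys4 was compared with no stimulation within each shRNA state. Such a ratio rests on 1 library per group and has no replicate check, and its 95% interval covers counting error only. A gene was called at a ratio of at least 2 or at most 0.5 with an interval excluding 1, and only genes reaching 5 CPM in the higher of the pair were considered. In bulk RNA, a change in RNA per cell and a change in the share of cells that carry it cannot be told apart.

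Among cells with shRNA, Stat2 was 3.14-fold higher after Pam3Cys4 than unstimulated (95% interval 3.07 to 3.22) and Stat3 1.83-fold higher (1.79 to 1.86). Stat6 was 1.15-fold higher (1.13 to 1.18). Stat5a was 1.47-fold lower after Pam3Cys4 and Stat5b 1.20-fold lower. Of the 5 measured members 1, Stat2, was called higher and 0 lower, beside 6.3% of 9601 genes called higher and 3.53% called lower, 9.83% in all.

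In cells without shRNA, Stat2 was 2.33-fold higher after Pam3Cys4 than unstimulated (95% interval 2.16 to 2.53) and Stat3 2.53-fold higher (2.46 to 2.60). Stat5a was 1.40-fold lower and Stat5b 1.41-fold lower after Pam3Cys4. Stat6 had a ratio of 1.02 (0.992 to 1.05), and with library totals in place of TMM its log2 ratio was -0.15. Of the 5 measured members 2 were called higher and 0 lower, beside 7.07% of 9555 genes called higher and 6.51% called lower, 13.6% in all.

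TMM scaling bears on these numbers. With library totals, the median log2 ratio over all measured genes was -0.118 with shRNA and -0.185 without shRNA, against 0.016 and -0.001 with TMM. The split of called genes was then 494 higher and 466 lower with shRNA, against 605 and 339 with TMM, and 541 higher and 898 lower without shRNA, against 676 and 622. The calls on Stat2 and Stat3 were the same under both scalings.

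The ratio of the stimulation ratios, shRNA over no shRNA, was 1.35 for Stat2 (95% counting interval 1.24 to 1.46) and 0.721 for Stat3 (0.697 to 0.746). It was 1.17 for Stat5b (1.09 to 1.27), 1.13 for Stat6 (1.09 to 1.17) and 0.954 for Stat5a (0.847 to 1.07). Of the 5 members 0 reached a 2-fold difference between the stimulation ratios, beside 1.94% of 9857 genes with a larger and 1.64% with a smaller ratio, 3.58% in all. The intervals of Stat2, Stat3, Stat5b and Stat6 excluded 1, but with 1 library per group the spread between cultures is unknown, so these differences have no test.

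The shRNA state was compared within each stimulation state. After Pam3Cys4, Stat2 was 10.96-fold higher with shRNA than without (95% interval 10.5 to 11.5), the 135th highest ratio of 9702 genes. Stat5b was 1.65-fold higher (1.55 to 1.75), Stat6 1.23-fold higher (1.20 to 1.26) and Stat3 1.20-fold higher (1.18 to 1.23). Stat5a was 1.21-fold lower. Of the 5 measured members 1 was called higher and 0 lower, beside 9% of all genes called higher and 5.58% called lower, 14.6% in all.

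In unstimulated cells, Stat2 was 8.15-fold higher with shRNA than without (95% interval 7.61 to 8.74), the 167th highest ratio of 9651 genes. Stat3 was 1.67-fold higher (1.62 to 1.72), Stat5b 1.41-fold higher (1.34 to 1.48) and Stat6 1.09-fold higher (1.06 to 1.12). Stat5a was 1.15-fold lower. Of the 5 measured members 1 was called higher and 0 lower, beside 7% of all genes called higher and 4.82% called lower, 11.8% in all. With library totals the log2 ratio of Stat6 was 0.00, against 0.12 with TMM.

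**Figure D3:**
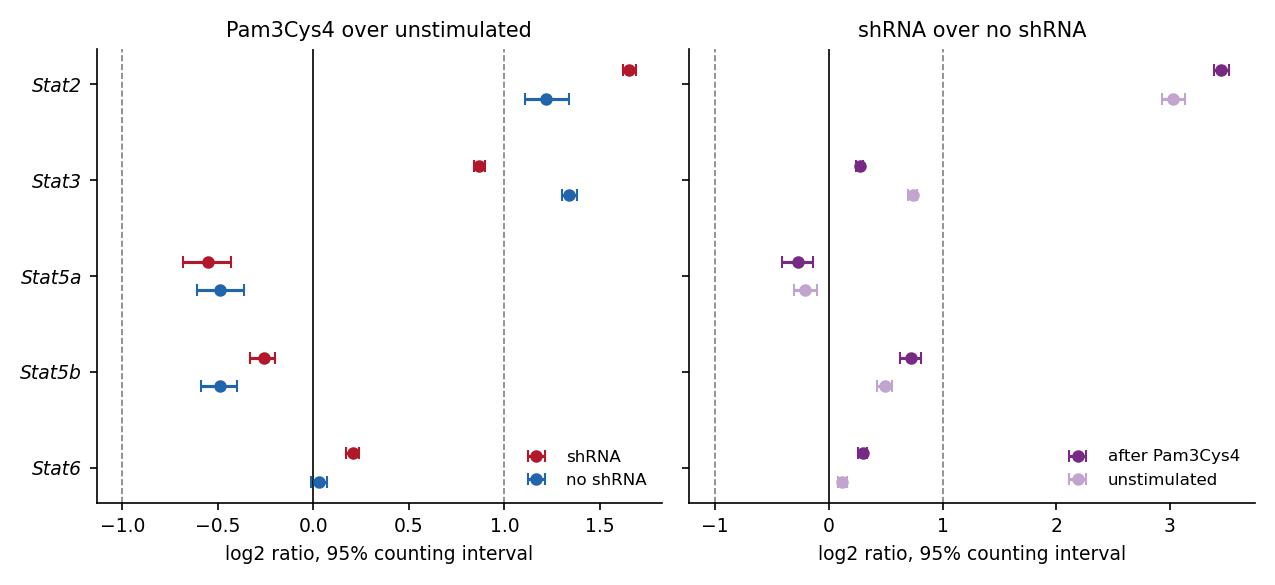
Log2 ratios of the 5 STAT genes with 95% counting intervals, for Pam3Cys4 over unstimulated at left and shRNA over no shRNA at right. Dashed lines mark a 2-fold ratio. Only Stat2 lies beyond the 2-fold line in all 4 comparisons, with log2 ratios of 1.65 and 1.22 at left and of 3.45 and 3.03 at right.

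A test across the 4 libraries was possible in an additive model with a term for shRNA and a term for stimulation, in which the 2 states of the other factor stand as repeats. It leaves 1 residual degree of freedom, and its p-values do not cover the spread between separately prepared cultures. By edgeR's quasi-likelihood F test with Benjamini-Hochberg adjustment, Stat2 rose with shRNA by 3.24 on the log2 scale (SE 0.16, adjusted p = 0.000737). In the same edgeR fit Stat5b rose with shRNA by 0.61 (SE 0.13, adjusted p = 0.0383). Of the 5 members tested 2 rose and 0 fell with shRNA, beside 12.3% of 9559 genes that rose and 8.66% that fell, 20.9% in all. At an unadjusted p under 0.05 the edgeR test also put 0 members lower, and DESeq2 put 0 lower at the adjusted threshold. Stat3 did not pass, at a log2 difference of 0.50 (SE 0.16, edgeR adjusted p = 0.0850), nor did Stat5a at -0.24 (SE 0.13, adjusted p = 0.261) or Stat6 at 0.21 (SE 0.12, adjusted p = 0.260). With library totals Stat5b no longer passed (0.51, edgeR adjusted p = 0.0546), and DESeq2 passed Stat3 (0.48, adjusted p = 0.0486).

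With stimulation, Stat2 rose by 1.44 on the log2 scale (SE 0.15, edgeR adjusted p = 0.00853) and Stat3 by 1.10 (SE 0.16, adjusted p = 0.0152). Of the 5 members 2 rose and 0 fell, beside 11.9% of genes that rose and 10.9% that fell, 22.8% in all. At an unadjusted p under 0.05 the edgeR test put 2 members lower, Stat5a and Stat5b, and DESeq2 put 0 lower at the adjusted threshold. The log2 difference was -0.52 for Stat5a (SE 0.13, edgeR adjusted p = 0.0534), -0.38 for Stat5b (SE 0.13, adjusted p = 0.10) and 0.12 for Stat6 (SE 0.12, adjusted p = 0.486). With library totals both Stat5 genes passed as lower in edgeR, Stat5a at -0.68 (adjusted p = 0.0214) and Stat5b at -0.53 (adjusted p = 0.0402), and the number of genes that fell was 2023, against 1045 with TMM.

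Few genes followed the course of Stat2 over the 4 libraries. Likeness was measured as the largest absolute difference between log2(CPM + 0.5) profiles centred on their means, among 9462 genes, and is a description over 4 points. Nearest to Stat2 were Plpp3 (0.16), Igtp (0.18) and Phf11b (0.18), and these were the only 3 genes within 0.25. Without shRNA and unstimulated they stood at 0.921, 1.15 and 0.422 CPM, against 17.2 CPM for Stat2. So near the added 0.5 CPM their profiles are narrowed, and their unadjusted spans are wider than that of Stat2. For Stat3 the nearest were the gene model Gm8894 (0.05), the gene model Gm6977 (0.06) and Pik3cb (0.07), and 67 genes lay within 0.25. By the same distance 466 genes lay around Stat5b, 880 around Stat5a and 2007 around Stat6. Among the members these numbers were larger the smaller the span.

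The partners of STAT2 were read next. Irf9, which gives ISGF3 its DNA binding, had 3573 counts with shRNA after Pam3Cys4, 3305 with shRNA unstimulated, 864 without shRNA after Pam3Cys4 and 463 without shRNA unstimulated. It was 3.81-fold higher with shRNA than without after Pam3Cys4 (95% interval 3.53 to 4.10) and 5.58-fold higher in unstimulated cells (5.07 to 6.17), and it rose with shRNA by 2.20 on the log2 scale in edgeR's test (adjusted p = 0.00245). Nmi, which binds several STATs, was 6.34-fold and 3.32-fold higher with shRNA, after Pam3Cys4 and unstimulated. The coactivators Crebbp and Ncoa1 did not reach 2-fold in any of the 4 comparisons with TMM scaling. Ncoa1 came nearest, at 1.90-fold lower after Pam3Cys4 without shRNA, and it was called lower there with library totals. Irf9 and Nmi were the 2 of 5 partners and coactivators that rose with shRNA in edgeR's test, beside 12.3% of all genes. Nmi passed the filter of 5 CPM through the shRNA libraries alone, so this share depends in part on the filter.

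The 26 listed targets of STAT2 and IRF9, a list that includes Irf9 itself and the inhibitor Usp18, were higher with shRNA, as Stat2 was. With shRNA, 26 of 26 measured targets were called higher than without shRNA after Pam3Cys4 (median log2 ratio 4.05, against 0.05 over all genes). In unstimulated cells 25 of 25 were called higher with shRNA (4.99, against 0.02 over all genes). Of all genes, 9% and 7% were called higher in these comparisons, in the same order. Cmpk2 was 54.9-fold and 131-fold higher, Oasl2 34.9-fold and 96.8-fold and Trim30a 64.0-fold and 86.6-fold, each after Pam3Cys4 and unstimulated. In edgeR's additive test 25 of 25 rose with shRNA and 21 of 25 rose with stimulation, beside 12.3% and 11.9% of all genes. A target could pass the filters of 5 CPM through the shRNA libraries alone, and only 22 of the 26 were measured in the pair without shRNA. The ratio of stimulation ratios was at least 2-fold smaller for 9 of 24 targets and at least 2-fold larger for 0, beside 1.64% and 1.94% of all genes. Its median log2 over the targets was -0.72, while its log2 for Stat2 was 0.43. Promoter windows were at hand for 20 of these targets, and 9 of the 20 held the core of the interferon-stimulated response element, or 45%, against 3.46% of all genes in the table.

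**Figure D4:**
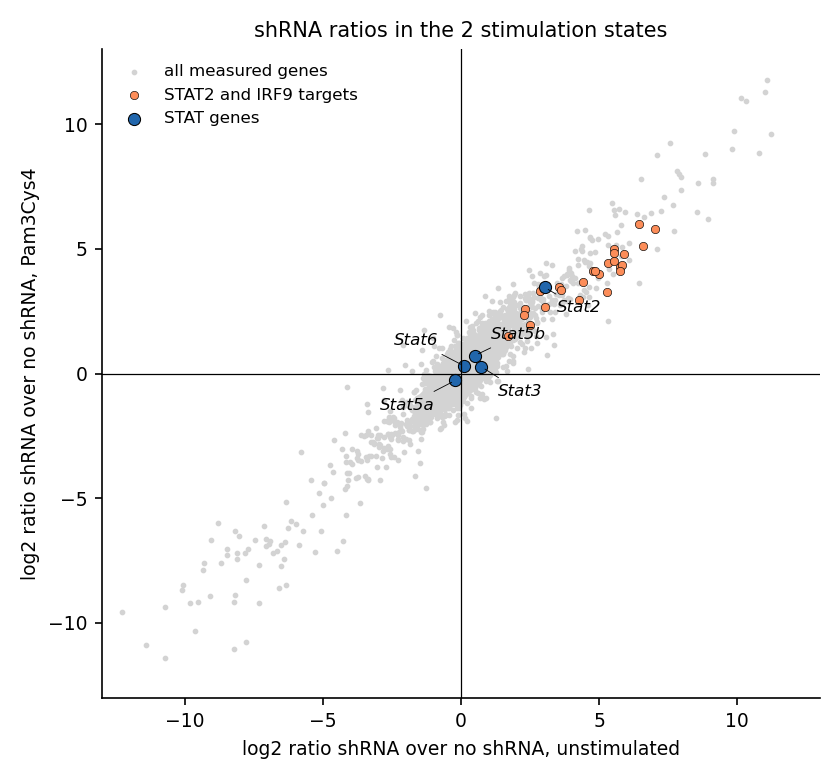
Log2 ratio of shRNA over no shRNA in unstimulated cells (x axis) and after Pam3Cys4 (y axis), 1 point per gene measured in both comparisons. Stat2 (3.03 and 3.45) lies apart from the other 4 STAT genes, which have ratios between -0.27 and 0.74, and the listed STAT2 and IRF9 targets all lie above 0 on both axes.

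The 4 JAK kinases act upstream of the STATs. With shRNA against without, their median log2 ratio was 0.32 after Pam3Cys4 and -0.12 in unstimulated cells, and Tyk2 was 1.801-fold and 1.06-fold higher. None of the 4 was called in either comparison of shRNA with no shRNA. Of all genes, 14.6% were called after Pam3Cys4 and 11.8% in unstimulated cells. In the additive test for shRNA 0 of 4 passed in edgeR, beside 20.9% of all genes, and 0 of 4 in DESeq2. At an unadjusted p under 0.05, 1 of 4 passed in either tool. Jak2, which serves the receptors of GM-CSF and interferon gamma, was 3.52-fold higher after Pam3Cys4 with shRNA (95% interval 3.27 to 3.79) and 1.79-fold higher without shRNA (1.66 to 1.93), and it rose with stimulation by 1.33 on the log2 scale (edgeR adjusted p = 0.0299). Tyk2, which serves the type I interferon receptor, was 2.11-fold higher after Pam3Cys4 with shRNA (2.04 to 2.17) and 1.24-fold higher without shRNA (1.19 to 1.29). Jak1 was 1.29-fold and 1.14-fold higher, and Jak3 1.08-fold and 1.41-fold higher, with and without shRNA.

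Of the 25 listed cytokine ligands only 6 were measured in each stimulation comparison. Called higher after Pam3Cys4 were 5 of 6 with shRNA (median log2 ratio 3.26) and 6 of 6 without shRNA (7.43), beside 6.3% and 7.07% of all genes. With shRNA, 4 of 5 were called with library totals (median 2.19) and likewise with DESeq2's size factors (2.30), where 1 ligand fell under the filter of 5 CPM. Csf3, which encodes G-CSF, had 8727 counts with shRNA after Pam3Cys4, 8 with shRNA unstimulated, 24561 without shRNA after Pam3Cys4 and 3 without shRNA unstimulated. A ligand could pass the filter of 5 CPM through the stimulated library alone, as Csf3 did in either shRNA state. The shares called higher and the medians therefore depend in part on the filter. After Pam3Cys4, 3 of 8 ligands were called higher with shRNA than without and 5 lower, beside 9% and 5.58% of all genes. Csf2, which encodes GM-CSF, an activator of STAT5, had 6 counts with shRNA against 874 without. Il6, an activator of STAT3, had 114 counts with shRNA against 971 without, and Il15, which also signals through STAT5, had 341 against 34. Here too Csf2 and Il6 passed the filter through the library without shRNA alone, and Il15 through the shRNA library alone.

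Receptor chains were mixed. With shRNA, 4 of 21 measured chains were called higher and 2 lower than without shRNA after Pam3Cys4, beside 9% of all genes called higher and 5.58% lower. In unstimulated cells 4 of 20 were called higher and 2 lower, beside 7% and 4.82% of all genes, and 3 of the chains were called higher with library totals. Il7r was 9.01-fold and 11.5-fold higher and Il12rb2, a chain of the interleukin 12 receptor that acts through STAT4, was 4.56-fold and 4.50-fold higher, after Pam3Cys4 and unstimulated. Il21r was 5.46-fold lower after Pam3Cys4 and 9.66-fold lower unstimulated. A chain could pass the filter of 5 CPM through the library on its higher side alone. Il7r and Il12rb2 did so with shRNA and Il21r without shRNA, so the shares called depend in part on the filter. The interleukin 4 receptor chain Il4ra had 4192 counts with shRNA after Pam3Cys4, 2577 with shRNA unstimulated, 5159 without shRNA after Pam3Cys4 and 1591 without shRNA unstimulated. It rose with stimulation by 1.36 on the log2 scale (edgeR adjusted p = 0.0190).

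Of the 17 inhibitors tested in edgeR's additive model, 4 rose with stimulation, beside 11.9% of all genes tested. Socs3, which restrains receptors that use STAT3, had 20102 counts with shRNA after Pam3Cys4, 340 with shRNA unstimulated, 14677 without shRNA after Pam3Cys4 and 1092 without shRNA unstimulated. It rose with stimulation by 4.95 on the log2 scale (edgeR adjusted p = 0.0132), as did Socs1 by 1.88 (adjusted p = 0.0390). Socs1 passed the filter of 5 CPM through the stimulated libraries alone. Cish, a feedback gene of STAT5, had 144 counts with shRNA after Pam3Cys4, 24 with shRNA unstimulated, 3054 without shRNA after Pam3Cys4 and 31 without shRNA unstimulated. It was 23.0-fold lower with shRNA than without after Pam3Cys4 (95% interval of the ratio 0.0365 to 0.0513). Usp18, which blocks the type I interferon receptor, was 17.3-fold and 29.3-fold higher with shRNA, after Pam3Cys4 and unstimulated. It was the 1 inhibitor of 17 that rose with shRNA in edgeR's additive test, in which 12.3% of all genes rose, while DESeq2 put 3 of 17 higher. Ptpn1, a phosphatase that acts on JAK kinases, was also called higher with shRNA in unstimulated cells, at 2.05-fold (95% interval 1.97 to 2.12), but not with library totals.

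Targets of STAT3 followed stimulation. Called higher after Pam3Cys4 were 6 of 11 with shRNA (median log2 ratio 1.45) and 10 of 11 without shRNA (1.74), beside 6.3% and 7.07% of all genes. With library totals 8 of 11 were called without shRNA. In edgeR's additive test 11 of 11 rose with stimulation, beside 11.9% of all genes. Il1rn, the interleukin 1 receptor antagonist, was 6.40-fold and 16.2-fold higher, and Bcl3, a nuclear regulator of NF-kB, was 5.58-fold and 13.4-fold higher, with and without shRNA. With shRNA against without in unstimulated cells, 2 of 11 targets were called higher, Il1rn at 3.12-fold and Bcl3 at 2.83-fold. There 1 was called lower, Socs3 at a ratio of 0.244, beside 7% of all genes higher and 4.82% lower. After Pam3Cys4 0 of 11 were called in either direction, beside 9% of all genes higher and 5.58% lower. In the additive test for shRNA, 2 of 11 rose in edgeR, Cebpb by 0.52 and Zfp36 by 0.70 on the log2 scale (adjusted p = 0.0402 and 0.0354), and 3 of 11 rose in DESeq2, beside 12.3% of all genes in edgeR. The median log2 ratio of shRNA over no shRNA was 0.32 in unstimulated cells and 0.02 after Pam3Cys4, the second being -0.05 with library totals.

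Of the 8 listed targets of STAT4, 4 were tested, and Ifng, Tbx21 and Gzmb were at 0 in all libraries. Furin and Il12rb2 rose with shRNA by 1.19 and 2.18 on the log2 scale (edgeR adjusted p = 0.00956 and 0.00220), and Il18rap fell by 2.01 (adjusted p = 0.00227). Of all genes, 12.3% rose and 8.66% fell in that test. Il12rb2 passed the filter of 5 CPM through the shRNA libraries alone.

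Targets of STAT5 differed in direction with shRNA in unstimulated cells, where 1 of 4 was called higher and 1 lower (2 lower with library totals). After Pam3Cys4, 0 of 6 were called higher and 3 lower, Ccnd2, Cish and Osm (median log2 ratio -0.83). Of all genes, 9% were called higher and 5.58% lower there, and 7% and 4.82% in unstimulated cells. Ccnd2, which encodes cyclin D2 and is activated by STAT5 in blood cells, had 109 counts with shRNA after Pam3Cys4, 153 with shRNA unstimulated, 9895 without shRNA after Pam3Cys4 and 16283 without shRNA unstimulated. With shRNA Ccnd2 fell by 6.86 on the log2 scale in edgeR's test (adjusted p = 0.000421). It was the 1 STAT5 target of 5 tested that fell in that test, beside 8.66% of all genes. A target could pass the filter of 5 CPM through the libraries without shRNA alone. Ccnd2 did so, as did Cish in the comparison after Pam3Cys4. The shares that were lower and the median therefore depend in part on the filter. Pim1, a kinase gene, was 1.43-fold higher with shRNA after Pam3Cys4 and 3.67-fold higher unstimulated, and its log2 difference of 1.16 did not pass edgeR's test (adjusted p = 0.0772). DESeq2 put 1 of the 5 higher and 1 lower with shRNA. Of the STAT5 targets 4 of 5 rose with stimulation, beside 11.9% of all genes. Among them were Pim1, by 3.27, and Osm, by 3.28 on the log2 scale (edgeR adjusted p = 0.0101 and 0.0179). Osm passed the filter of 5 CPM through the stimulated libraries alone.

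Of the 5 STAT6 targets tested, 4 fell with shRNA in edgeR's test, beside 8.66% of all genes, and 3 fell in DESeq2's. The median log2 difference of the 5 was -2.98, against 0.04 over all genes. A target could pass the filter of 5 CPM through the libraries without shRNA alone, as Arg1 and Egr2 did. The share that fell and the median therefore depend in part on the filter. Arg1, which encodes arginase, had 19 counts with shRNA after Pam3Cys4, 4 with shRNA unstimulated, 1373 without shRNA after Pam3Cys4 and 915 without shRNA unstimulated. Mrc1, the macrophage mannose receptor, had 174 counts with shRNA after Pam3Cys4, 343 with shRNA unstimulated, 2552 without shRNA after Pam3Cys4 and 4683 without shRNA unstimulated. Egr2 fell with shRNA by 2.98 on the log2 scale (edgeR adjusted p = 0.00105). Chil3, Retnla and Pdcd1lg2, also on the list, were at 0 in all libraries. Ch25h, also listed, was 61.4-fold higher with shRNA than without after Pam3Cys4 (734 against 11 counts). It reached 5 CPM only in the shRNA library after Pam3Cys4, so it was not among the 5 tested.

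**Figure D5:**
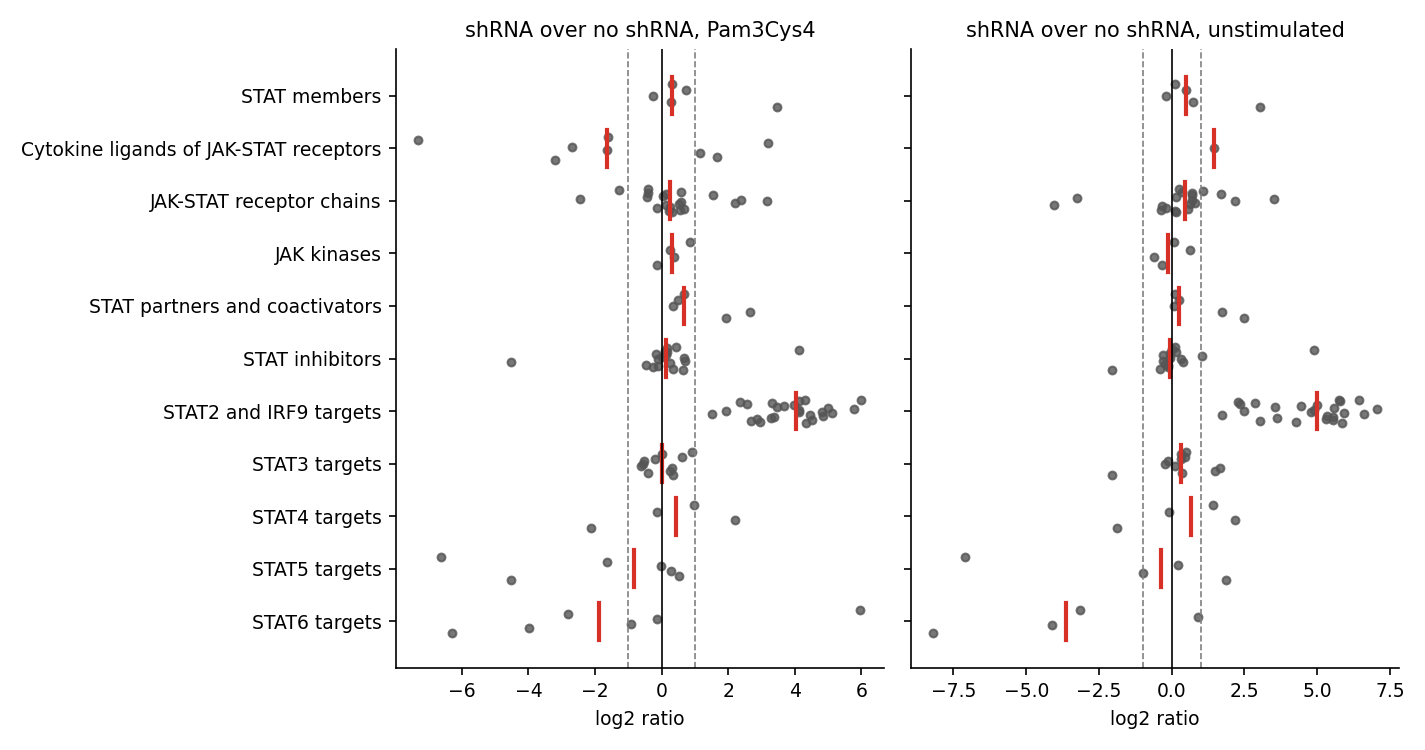
Log2 ratio of shRNA over no shRNA for every measured gene of each pathway list, after Pam3Cys4 at left and unstimulated at right. Each point is a gene, red bars mark list medians, dashed lines mark a 2-fold ratio. The median of the STAT2 and IRF9 targets is 4.05 at left and 4.99 at right, while that of the STAT3 targets is 0.02 and 0.32.

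No source used here states whether counting used strand, and without it reads from exons that overlap on opposite strands cannot be told apart. The exons of Stat3 and Stat5a overlap by 72 bases on opposite strands, which is 0.756% of Stat3 and 1.01% of Stat5a. Those of Stat6 and Nab2, a corepressor gene, overlap by 40 bases, 0.909% of Stat6. Nab2 had 3825 counts with shRNA after Pam3Cys4, 2549 with shRNA unstimulated, 3610 without shRNA after Pam3Cys4 and 2122 without shRNA unstimulated, and it rose with stimulation by 0.84 on the log2 scale (edgeR adjusted p = 0.0160).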

How the data were processed

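Per the labels' protocols, mRNA libraries (Illumina kit) were sequenced as reads of 50 bp. Each deposited table holds raw counts of reads per gene. Per the submitters' processing notes, the authors used CASAVA 1.8, TopHat, HTSeq and the build NCBIM37, and neither the other tools' versions nor the gene annotation or strand option is stated there. The 5 HTSeq summary lines per table were kept out of totals and tests (32.5 to 34.4% of all tallies). Reads that align to several places went to no gene, so close copies are undercounted.

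Of the 37681 IDs, 32642 were matched to symbols in GENCODE vM21, which is on another build (GRCm38) and was used only for names, exon lengths and sequence. Scaling used TMM factors (edgeR 4.0.16, R 4.3.3). Pair ratios carry exact conditional binomial 95% intervals (SciPy 1.17.1). The additive test used edgeR's quasi-likelihood F test with Benjamini-Hochberg adjustment at 0.05, over the 9559 genes that reached 5 CPM in 2 or more libraries. Ratios of ratios used genes with at least 10 counts per library. Where a library had 0 counts, 3 counts stood in as its floor. DESeq2 1.42.0, library totals, other filters and a fold of 1.5 were alternatives. The Stat5b to Stat5a ratio per unique position was added after the data were seen. Scripts were tested on simulated data.

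Members and lists (216 genes, all matched) were chosen with earlier results of these data known. Named were all members, up to 4 genes per list with the largest ratios in a comparison, the JAK kinases, Irf9, Socs1, Socs3, Cish and Nab2, and the 3 genes most like a member that spans at least 2-fold. Lck, the Y-linked genes and list genes at 0 were named after their values were seen. Where nothing in the labels separates cultures or animals, p-values measure only spread between these libraries.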

Additional observations from a re-analysis of the deposited data

Results flagged for a closer look

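Among the genes named above, Jak2, Il4ra and Socs3 differed in direction between the stimulation states and Ptpn1 between the shRNA states, with both counting intervals excluding 1. With 1 library per group these differences were not tested. Jak2 was 1.30-fold higher with shRNA than without after Pam3Cys4, and had a ratio of 0.661 in unstimulated cells. Il4ra had a ratio of 0.748 of shRNA over no shRNA after Pam3Cys4, and was 1.27-fold higher with shRNA in unstimulated cells. Socs3 was 1.26-fold higher with shRNA than without after Pam3Cys4, and had a ratio of 0.244 in unstimulated cells. Ptpn1 had a ratio of 0.832 of Pam3Cys4 over unstimulated with shRNA, and was 1.57-fold higher after Pam3Cys4 without shRNA.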

How the results depend on the processing

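No paired analysis was possible because each group is 1 library and the labels give no replicate numbers, while the additive model already holds the other factor as a term. No library could be left out of a group for the same reason. Of 199 recomputed values, 82 counts stayed within 1.5 times and 65 single values stayed within their interval or kept their call. With no filter on low counts, genes called higher and lower numbered 1289 and 892 (Pam3Cys4, shRNA), 1332 and 1242 (Pam3Cys4, no shRNA), 1610 and 1449 (shRNA, after Pam3Cys4) and 1318 and 1482 (shRNA, unstimulated). With a filter of 1 CPM, genes called lower numbered 526 (Pam3Cys4, shRNA), 893 (shRNA, after Pam3Cys4) and 791 (shRNA, unstimulated). With a fold of 1.5 they numbered 1301 higher and 1053 lower, 1455 and 1493, 1654 and 1167, and 1277 and 985, in the order first given, and 2 STAT members were called higher in each of the 4 comparisons. With 1 count per library as the filter, 517 genes had a larger and 451 a smaller ratio of stimulation ratios. With library totals in edgeR's additive test, 2023 genes and 2 STAT members (Stat5a and Stat5b) fell with stimulation, 1260 genes fell with shRNA, and 1 STAT member, Stat2, rose with shRNA. Stat6 then had a log2 difference of -0.04 with stimulation (edgeR adjusted p = 0.840). The causes of these shifts were not tested, beyond that the filter and fold alternatives admit more genes by construction. Depth limits Stat4 to the stated floors, and reads that fit several places, 27.0 to 29.9% of the totals, were not given to any gene.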
